A study of Arabidopsis thaliana with 8 samples.

Results

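AT2G05540 (probe set 265511_at) and GRP3S (AT2G05380, probe set 263046_at) are glycine-rich protein genes on chromosome 2 of *Arabidopsis thaliana*. They are 2 of the 22746 probe sets measured on ATH1 arrays in young inflorescences of plants that ectopically expressed a *CYC2* gene. Both were chosen by their measured levels on these same arrays, where their signal was far higher with each of the 3 transgenes than with the empty vector, so their values are described here without a test. The 8 arrays fall into 4 groups of Columbia plants of T2 lines, with 2 arrays each. The first carried 35S::IaTCP1, a gene from the crucifer *Iberis amara*, the second 35S::TCP1 from *Arabidopsis* itself, the third 35S::CYC from *Antirrhinum majus*, and the last the empty vector pBAR. In all of them secondary inflorescences with closed buds were harvested, and the 35S promoter drives its gene in most tissues and not only in petals. Each group is a single transgenic line from which 2 technical RNA samples were prepared, so standard errors and p-values below reflect how much RNA samples of 1 line vary, and leave out how much lines vary. For the transgenic lines, plants with a clear flower phenotype were taken.

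Glycine-rich proteins are a diverse group of plant proteins that share long stretches made mostly of glycine. Some are secreted and lie in the cell wall, others bind RNA, and others coat the oil bodies and the surface of pollen. GRP3 is a secreted member that binds the extracellular part of WAK1, a receptor-like kinase that spans from the cell wall to the cytoplasm, and GRP3S is named as its short form. CYC2 proteins are TCP transcription factors that control the growth of petals, and through it the symmetry of the flower. The level of the transgenes themselves was not analysed here, since no probe set was named for TCP1 and the array was not designed for genes of *Iberis* or *Antirrhinum*.

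AT2G05540 had a low signal with the empty vector, below the median of the arrays, and a high signal with every transgene. Levels are given as RMA signals on the log2 scale, on which a difference of 1 is a 2-fold change. Both arrays of 35S::IaTCP1 inflorescences gave 10.46 and 10.50, those of 35S::TCP1 gave 9.54 and 9.40, those of 35S::CYC gave 8.55 and 8.55, and those of the empty vector 5.32 and 5.31. No group overlapped with another, and the arrays of 1 group lay at most 0.14 apart. The mean signal was thus 10.48 ± 0.03 in 35S::IaTCP1, 9.47 ± 0.10 in 35S::TCP1, 8.55 ± 0.00 in 35S::CYC and 5.31 ± 0.01 in empty vector plants (SD, n = 2 each). Fewer cells of a type and less RNA per cell cannot be told apart in such whole inflorescences.

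On the log2 scale the difference from the empty vector was 5.17 for 35S::IaTCP1, 4.15 for 35S::TCP1 and 3.23 for 35S::CYC, each with a standard error of 0.09. These correspond to 35.9-fold, 17.8-fold and 9.40-fold higher signals. Ranked among all probe sets by this difference, AT2G05540 was number 1 for 35S::IaTCP1, number 3 for 35S::TCP1 and number 4 for 35S::CYC. The transgenes also stood apart from each other in AT2G05540. Its signal was higher by 1.01 in 35S::IaTCP1 than in 35S::TCP1, by 1.93 in 35S::IaTCP1 than in 35S::CYC and by 0.92 in 35S::TCP1 than in 35S::CYC, again with a standard error of 0.09.

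GRP3S already lay above the array medians with the empty vector, and its differences were smaller. Its arrays gave 10.47 and 10.52 in 35S::IaTCP1, 10.95 and 10.81 in 35S::TCP1, 10.84 and 10.80 in 35S::CYC, and 8.37 and 8.52 in empty vector plants. All 6 arrays with a transgene lay above both empty vector arrays. The group means were 10.50 ± 0.03 in 35S::IaTCP1, 10.88 ± 0.10 in 35S::TCP1, 10.82 ± 0.03 in 35S::CYC and 8.44 ± 0.10 in empty vector plants (SD, n = 2 each). Against the empty vector, the log2 differences were 2.05 for 35S::IaTCP1, 2.44 for 35S::TCP1 and 2.37 for 35S::CYC (standard error 0.09 each), or 4.15-fold, 5.41-fold and 5.18-fold. By this difference GRP3S was number 40, number 19 and number 30 among all probe sets for these 3 transgenes in turn.

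The order of the transgenes in GRP3S was not that seen in AT2G05540. 35S::IaTCP1, which had the highest AT2G05540 signal, had the lowest GRP3S signal among the transgenes, 0.38 below 35S::TCP1 and 0.32 below 35S::CYC on the log2 scale (standard error 0.09 each). Neither of its arrays overlapped with those of the other transgenes. Between 35S::TCP1 and 35S::CYC the arrays of GRP3S overlapped, with a difference of 0.06 and a standard error of 0.09.

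**Figure D1:**
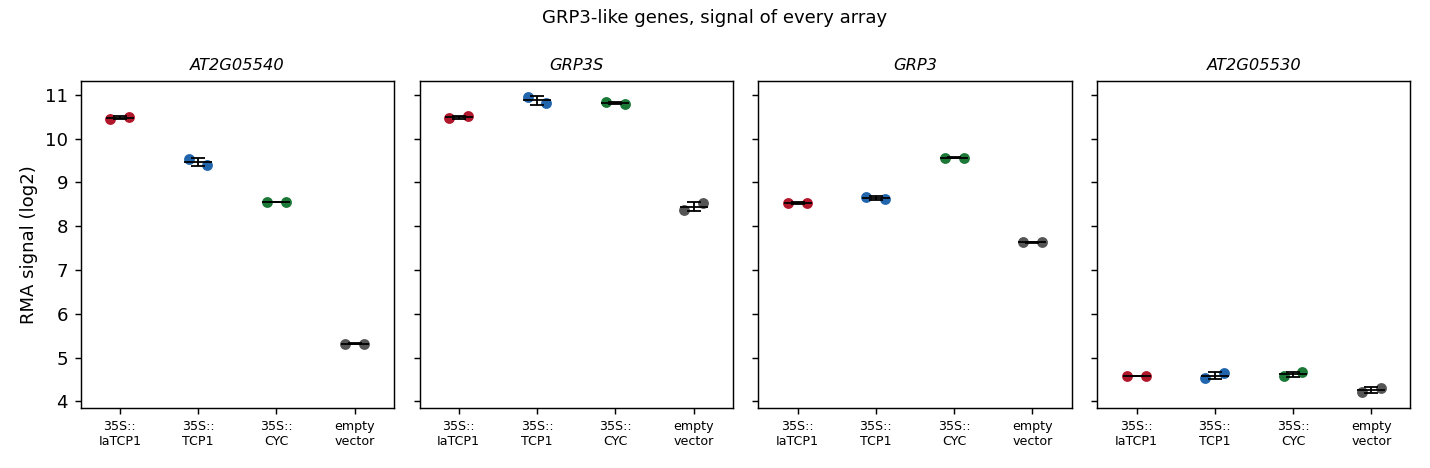
RMA signal (log2) of AT2G05540, GRP3S, GRP3 and AT2G05530 on every array, by group; points are single arrays, the bar is the group mean and the error bar the SD (n = 2 each). AT2G05540 stepped down through 35S::IaTCP1 (10.48), 35S::TCP1 (9.47) and 35S::CYC (8.55) to the empty vector (5.31), while GRP3S lay between 10.47 and 10.95 with every transgene; levels are not comparable between panels, since each probe set has its own brightness.

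Few transcripts responded this strongly to all 3 transgenes. A probe set was called at a fold change of 2 or more together with a limma p-value of at most 0.05 after adjustment by Benjamini-Hochberg over the whole comparison. Against the empty vector, 0.976% of all probe sets were called higher and 2.35% lower for 35S::IaTCP1, 0.659% higher and 1.25% lower for 35S::TCP1, and 1.53% higher and 1.55% lower for 35S::CYC. These comparisons share the empty vector arrays and are therefore not independent of each other. Of all probe sets, 73 (0.321%) were called higher with all 3 transgenes, and 6 of these had a log2 difference of at least 2 with each of them. Beside AT2G05540 and GRP3S these were BGLU28, a beta-glucosidase, CYP82G1, a cytochrome P450, AT5G05890, and 1 probe set without a gene name. AT2G05540 was the only probe set with a log2 difference of at least 3 with every transgene. When probe sets were ranked by the smallest of their 3 differences, AT2G05540 was number 1 and GRP3S number 6, which restates their choice.

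Among the closest relatives, GRP3 (AT2G05520) was higher with every transgene, and highest with 35S::CYC. Like GRP3S, its probe set is named only through gene tables of the study that list transcripts which changed on these arrays, so its change is no independent evidence and is given without a p-value. GRP3 gave 8.54 and 8.52 in 35S::IaTCP1, 8.67 and 8.62 in 35S::TCP1, 9.57 and 9.56 in 35S::CYC, and 7.63 and 7.64 in empty vector plants. No groups overlapped. The log2 differences of GRP3 from the empty vector were 0.90 for 35S::IaTCP1, 1.01 for 35S::TCP1 and 1.93 for 35S::CYC (standard error 0.08 each), or 1.86-fold, 2.01-fold and 3.81-fold. Compared directly, GRP3 differed by -1.03 between 35S::IaTCP1 and 35S::CYC, by -0.92 between 35S::TCP1 and 35S::CYC and by -0.11 between 35S::IaTCP1 and 35S::TCP1.

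The transgene with the highest signal was thus 35S::IaTCP1 for AT2G05540 and 35S::CYC for GRP3, while for GRP3S 35S::TCP1 and 35S::CYC could not be put in order. Whether probes of GRP3S and GRP3, which are similar genes, also bind transcripts of the other was not tested. AT2G05530, the gene next to AT2G05540, was dim in every group. It gave 4.57 and 4.58 in 35S::IaTCP1, 4.53 and 4.64 in 35S::TCP1, 4.57 and 4.66 in 35S::CYC, and 4.21 and 4.30 in empty vector plants. The transgenic groups overlapped each other and lay above the empty vector by 0.32, 0.33 and 0.36 for 35S::IaTCP1, 35S::TCP1 and 35S::CYC (standard error 0.09 each, limma adjusted p = 0.022, 0.0237 and 0.0115), which is below the 2-fold minimum. GRP9 (AT2G05440) and AT2G05510, also GRP3-like, have no named probe set and were not analysed here.

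In a wider list of glycine-rich genes, no platform-named member beside AT2G05540 was called higher with a transgene. AT2G05540 and GRP3S were chosen for their high levels, so how they stand against the list was set by that choice. GRP3, named like GRP3S through the study's tables, was also higher with every transgene. The list holds 58 loci, of which 28, not counting AT2G05540, can be assigned a probe set through the annotation of the platform. None of these 28 was called higher by limma with any transgene (at an unadjusted p under 0.05 and without the 2-fold minimum, 6, 4 and 6 were higher and 8, 10 and 10 lower), and 3, 2 and 3 fell for 35S::IaTCP1, 35S::TCP1 and 35S::CYC. Over all 22746 probe sets, 3874, 3315 and 3312 were higher and 3577, 3422 and 3811 lower at that unadjusted p. Over all probe sets, 0.976%, 0.659% and 1.53% were called higher and 2.35%, 1.25% and 1.55% lower for these transgenes. At such shares few of 28 genes would be called higher, so their lack of higher calls is near the background. The lower calls, 3, 2 and 3 of 28, are larger shares than those over all probe sets. This was not tested, and the list was drawn up with earlier results of these data known. The median log2 difference of the 28 genes was -0.02, -0.09 and 0.02 for these transgenes, beside a median of 0.05, 0.03 and 0.02 over all probe sets. Another 4 loci, GRP3, GRP7, GRP16 and GRP18, are named only through the study's tables, which select for change. They are not counted here and are given by their values alone.

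All the platform-named calls fell on genes known here only by their locus. AT1G30795 fell with every transgene, and its groups had the reverse order of those of AT2G05540. It gave 5.36 and 5.41 in 35S::IaTCP1, 5.99 and 6.15 in 35S::TCP1, 6.55 and 6.60 in 35S::CYC, and 7.62 and 7.84 in empty vector plants, with no overlap of groups. Its log2 differences from the empty vector were -2.35, -1.66 and -1.16 for 35S::IaTCP1, 35S::TCP1 and 35S::CYC (standard error 0.10 each, limma adjusted p = 8.47e-09, 4.46e-07 and 3.69e-06). AT4G30460 also fell with every transgene, but by similar amounts of -1.35, -1.12 and -1.19 (standard error 0.11 each, limma adjusted p = 1.74e-06, 1.76e-05 and 5.9e-06). AT4G18280 was called for 35S::IaTCP1 alone, with differences of -1.23, -0.84 and -0.56 in the same order of transgenes. AT1G04660 was called for 35S::CYC alone, with differences of -0.83, -0.55 and -1.29. For these 2 genes all 3 adjusted p-values were at most 0.00226, so it was the 2-fold minimum that set the transgenes apart.

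The functional classes differed in how many members could be read. Of 14 RNA-binding and cold shock domain glycine-rich proteins, which act in the processing of RNA and the response to cold, only AtRZ-1b and AtRZ-1c are named in the platform's table, and neither was called (at an unadjusted p under 0.05, both were lower in 35S::CYC than with the empty vector). Their differences from the empty vector were 0.20, -0.09 and -0.26 for AtRZ-1b and -0.04, -0.05 and -0.22 for AtRZ-1c, for 35S::IaTCP1, 35S::TCP1 and 35S::CYC. GRP7, an RNA-binding protein under control of the circadian clock and named only through the study's tables, had values of 9.88 and 9.80 in 35S::IaTCP1, 10.34 and 10.31 in 35S::TCP1, 9.67 and 9.66 in 35S::CYC, and 10.76 and 10.77 in empty vector plants. It was thus lower with each transgene, by -0.93, -0.44 and -1.10. Of 7 oleosins of the pollen coat only GRP16 and GRP18 have a named probe set, again through the study's tables. GRP16 differed from the empty vector by -0.78, -1.29 and -0.99 and GRP18 by -0.85, -1.04 and -0.95, on all 6 arrays of the transgenes below both empty vector arrays.

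**Figure D2:**
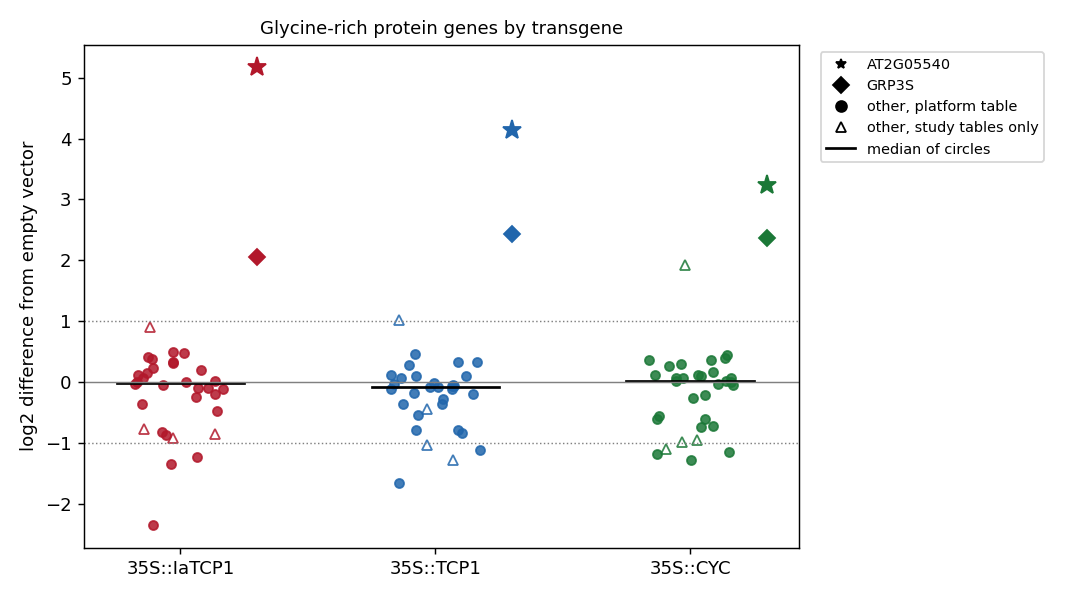
Log2 difference from the empty vector for the measured genes of the glycine-rich lists, by transgene; stars mark AT2G05540, diamonds GRP3S, circles the 28 other platform-named genes with their median as a line, and open triangles the 4 genes named only through the study's tables. Dotted lines mark a 2-fold change; no circle reaches the upper dotted line, and medians lie between -0.09 and 0.02.

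Direct comparisons of the transgenes, which leave out the empty vector in the values, called few glycine-rich genes and few of all probe sets. Over all probe sets, 0.299% were called higher and 0.343% lower in 35S::IaTCP1 than in 35S::TCP1, 0.743% higher and 1.97% lower in 35S::IaTCP1 than in 35S::CYC, and 0.607% higher and 1.38% lower in 35S::TCP1 than in 35S::CYC. Among the 28 genes, none was called by limma between 35S::IaTCP1 and 35S::TCP1 (9 had an unadjusted p under 0.05), and 1 was lower in each of the other comparisons. Over all 22746 probe sets, 2158 were higher and 2095 lower in 35S::IaTCP1 than in 35S::TCP1 at that unadjusted p. For 28 genes, these calls are near the shares over all probe sets. AT1G30795 was lower in 35S::IaTCP1 than in 35S::CYC by -1.19 (standard error 0.10, limma adjusted p = 2.91e-06). AT5G46730 was lower in 35S::TCP1 than in 35S::CYC by -1.15 (standard error 0.08, limma adjusted p = 1.44e-06). The arrays of AT5G46730 gave 8.55 and 8.62 in 35S::IaTCP1, 8.07 and 8.02 in 35S::TCP1, 9.19 and 9.20 in 35S::CYC, and 8.83 and 8.85 in empty vector plants.

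Wall-associated kinases, to which the partner of GRP3 belongs, had higher signals with the transgenes in those members that could be read. WAK1 gave 8.48 and 8.37 in 35S::IaTCP1, 7.56 and 7.52 in 35S::TCP1, 8.01 and 7.92 in 35S::CYC, and 6.68 and 6.69 in empty vector plants. Its differences from the empty vector were 1.74, 0.86 and 1.28 (standard error 0.09 each), and no groups overlapped. WAK2, a related kinase that binds pectin, gave 6.77 and 6.60 in 35S::IaTCP1, 6.47 and 6.52 in 35S::TCP1, 6.87 and 6.69 in 35S::CYC, and 5.01 and 5.01 in empty vector plants. Its differences were 1.68, 1.48 and 1.77 (standard error 0.10 each), with overlap between 35S::IaTCP1 and 35S::CYC. WAK1 and WAK2 are named only through the study's tables and count as chosen for their change. AT1G16260, a WAK-like kinase gene and the only one of 13 loci on this list named by the platform, was higher by 0.90, 0.50 and 0.49 (standard error 0.09 each, limma adjusted p = 1.53e-05, 0.00273 and 0.00222) and stayed under the 2-fold minimum.

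AT2G05540 and GRP3S lie in the same stretch of chromosome 2 but are not adjacent. In the RefSeq annotation (assembly TAIR10.1) 19 genes lie between them, 8 of which are protein-coding, whereas GRP3, AT2G05530 and AT2G05540 follow each other with none between. Of 67 annotated loci from AT2G05300 to AT2G05620, 16 beside AT2G05540 have a platform-named probe set, and none of these was called by limma in any of the 6 comparisons. In no comparison were more than 2.35% of all probe sets called in 1 direction, so the lack of calls among 16 is near the background. At an unadjusted p under 0.05, 2, 3 and 2 of them were higher than the empty vector in 35S::IaTCP1, 35S::TCP1 and 35S::CYC, and none differed between transgenes. Over all 22746 probe sets, 3874, 3315 and 3312 were higher at that unadjusted p. Without the 2-fold minimum, 1, 3 and 2 of the 16 passed the adjusted p, beside 4646, 3579 and 4671 of all 22746 probe sets. Their differences from the empty vector lay between -0.06 and 0.32 for 35S::IaTCP1, -0.06 and 0.39 for 35S::TCP1 and -0.12 and 0.36 for 35S::CYC. Of the 16, 13 stayed below a signal of 5 on all arrays. Medians were 0.11, 0.03 and 0.06, beside 0.05, 0.03 and 0.02 over all probe sets. Of the 16, 14, 10 and 15 had a higher mean than the empty vector. How many of all probe sets did was not counted.

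**Figure D3:**
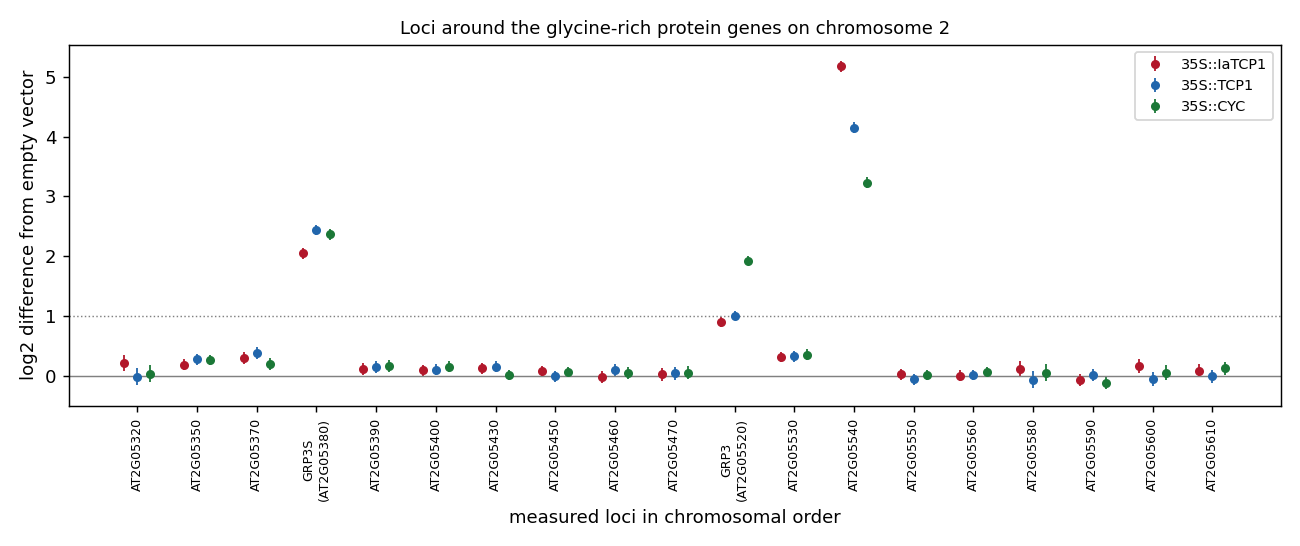
Log2 difference from the empty vector of each measured locus from AT2G05320 to AT2G05610 in chromosomal order, by transgene; error bars are standard errors of the limma fit and the dotted line marks a 2-fold change. GRP3S and GRP3 are shown because the study's tables list them as changed, and AT2G05540 was chosen for its levels. That these stand out is therefore set by how they were picked. The 16 other loci, named by the platform, lie between -0.12 and 0.39, and loci without a named probe set are not shown.

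Other transcripts traced profiles like those of AT2G05540 and GRP3S over the 8 arrays. Likeness was measured over 1421 probe sets whose group means span at least 1 on the log2 scale, as a description, since the arrays of a group share a line and all transgenes share the empty vector. For AT2G05540 the closest named genes by Pearson correlation were MSRB5, a methionine sulfoxide reductase (r = 0.996), ROC1, a cyclophilin (r = 0.993), AT1G50590 (r = 0.991), AT5G05890 (r = 0.990) and MYB34, a regulator of tryptophan metabolism (r = 0.989). They shared the order but not the size, with MSRB5 higher than the empty vector by 2.16 in 35S::IaTCP1, 1.79 in 35S::TCP1 and 1.41 in 35S::CYC. By size of the 3 differences, none came near. The closest was AT1G12010, with a root mean square distance of 1.08 from AT2G05540 and differences of 4.24, 5.16 and 1.95. Among named genes it was followed by AT5G05890 (1.20), BGLU28 (1.46), AIR3 (1.49) and AT5G44580 (2.02).

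GRP3S had closer company. Its nearest profiles by correlation were AT5G42680 (r = 0.987), the senescence-associated SAG13 (r = 0.987), the ethylene response factor gene ERF15 (r = 0.985), ARP1, an RNA-binding protein (r = 0.984), and EXT4, an extensin of the cell wall (r = 0.981). CYP82G1 came closest in size, at a root mean square distance of 0.19 with differences of 2.19, 2.58 and 2.11 for 35S::IaTCP1, 35S::TCP1 and 35S::CYC. After it followed, among named genes, AT2G33830, SAG13 and ERF15 (0.33 each) and petN, a plastid-encoded subunit of the cytochrome b6f complex (0.38). By rank correlation in place of Pearson's, MYB34 was the only gene of AT2G05540's 5 that was found again, and AT5G42680 and SAG13 were those of GRP3S.

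**Figure D4:**
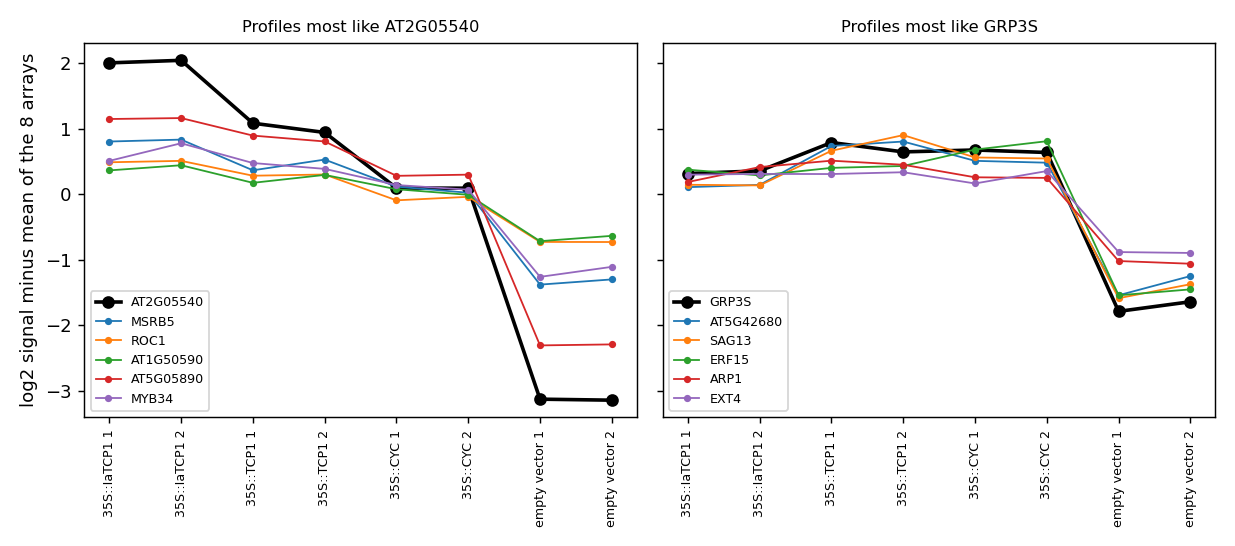
Log2 signal of each array minus the mean of the 8 arrays for AT2G05540 (left, black) and GRP3S (right, black) and the 5 named genes with the highest Pearson correlation to each. The black line of AT2G05540 spans more of the scale than each of its companions. That of GRP3S is nearer in span to AT5G42680, SAG13 and ERF15 and spans more than ARP1 and EXT4.

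Array medians ranged from 6.48 to 6.56, and replicate arrays correlated with r of 0.9967 to 0.9981. The label of the tissue was checked with AP1, a gene of floral meristems and outer floral organs and the only 1 of 10 floral markers with a named probe set. AP1 gave 10.48 and 10.56 in 35S::IaTCP1, 10.75 and 10.65 in 35S::TCP1, 9.69 and 9.79 in 35S::CYC, and 11.12 and 11.16 in empty vector plants. It was thus present in every group, and lower with each transgene by -0.62, -0.44 and -1.40, with no overlap with the empty vector. AP1, too, is named only through the study's tables, and the part of floral tissue in the levels of AT2G05540 and GRP3S was not tested. The 3 root markers that could be read stayed between 4.01 and 5.23, with none called by limma and none at an unadjusted p under 0.05. The leaf marker RCA, a photosynthesis gene also active in green buds, had linear signals of 8201 to 8810 in 35S::IaTCP1, 8040 to 8609 in 35S::TCP1, 8853 to 9029 in 35S::CYC and 8805 to 9615 in empty vector plants.

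Tapetum and pollen markers also moved with the groups, but in different orders. The pollen genes were lowest with 35S::IaTCP1 and next lowest with 35S::TCP1. Between 35S::CYC and the empty vector AT5G48140 differed by -0.53, and the other pollen genes only by -0.05 to -0.14. The summed linear signal over 10 of 14 genes of both kinds was 3598 to 3627 in 35S::IaTCP1, 5332 to 5409 in 35S::TCP1, 8437 to 8556 in 35S::CYC and 10378 to 10384 in empty vector plants. Its step between 35S::CYC and the empty vector includes the tapetum genes and is not that of pollen genes alone. Of the 6 platform-named markers, 5, 4 and 1 fell for 35S::IaTCP1, 35S::TCP1 and 35S::CYC, beside 2.35%, 1.25% and 1.55% of all probe sets. The 1 that fell for 35S::CYC was the tapetum gene AMS, and no platform-named pollen gene was called there. AT3G07820, for instance, fell by 2.51 for 35S::IaTCP1 and by 1.28 for 35S::TCP1 and differed by -0.14 for 35S::CYC (limma adjusted p = 3.02e-09, 1.18e-06 and 0.309). The 3 tapetum genes were lowest with 35S::CYC instead. AMS, a regulator of tapetum development, differed by -0.57 for 35S::IaTCP1 and -0.71 for 35S::TCP1 and fell by 1.81 for 35S::CYC. CYP704B1 and CYP703A2, which make precursors of the pollen wall and are named only through the study's tables, differed by -0.21, -0.69 and -1.15 and by -0.21, -0.33 and -1.19 in the same order of transgenes. No marker was at 0, since RMA signals have a floor above it. The part of pollen and tapetum tissue in the levels of AT2G05540 and GRP3S was not tested.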

How the data were processed

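Total RNA of secondary inflorescences was labelled and hybridized to 8 ATH1 arrays. The deposited values are log2 signals after RMA normalization by the authors, with a single value for each probe set on an array. The notes name Partek and RMA, and their versions, the background step and the genome build are not given in the sources used here. RMA compresses low signals and equalizes the arrays, so folds from a low signal can be understated and no total per array is left. Whether this changed the folds of AT2G05540, whose mean with the empty vector was 5.31, was not tested. The number of arrays limits the precision.

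Values were used as deposited. After 64 controls of 22810 probe sets were left out, 22746 were fitted with the functions lmFit and eBayes of limma 3.58.1 under R 4.3.3. Each group had its own mean, which left 4 residual degrees of freedom beside a prior of 7.9, and p-values were adjusted by Benjamini-Hochberg within each of 6 comparisons. The 2 genes and all lists were chosen with earlier results of these data known. Of the probe sets, 13513 are assigned 1 gene by the platform's annotation, 503 are assigned several, 428 are named only through the study's tables, and 8302 (36.5%) have no name, so lists are incomplete.

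Genes were named by a rule, namely AT2G05540, GRP3S and their GRP3-like relatives, up to 4 called members of each list per comparison, and for each of the 2 genes the 5 nearest in Pearson correlation and the 5 nearest in size. Neighbours and examples beside this rule were chosen after their values were seen. Alternatives were another normalization, a filter on dim probe sets, another spread or set of samples, the replicate number as a block, and leaving out single arrays. Descriptions of promoters and proteins that had been planned were not made. Python 3.11.15 with matplotlib 3.10.9 was used for the figures.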

Additional observations from a re-analysis of the deposited data

Results flagged for a closer look

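Among the 28 platform-named glycine-rich genes other than AT2G05540, 2 were called between transgenes when these were compared directly. Over all probe sets, 1.97% were called lower in 35S::IaTCP1 than in 35S::CYC and 1.38% lower in 35S::TCP1 than in 35S::CYC. For 28 genes, these 2 calls are near that background. Other genes of the 28 passed the adjusted p but not the 2-fold minimum. AT1G67870, for example, was higher by 0.72 in 35S::IaTCP1 than in 35S::CYC (limma adjusted p = 5.76e-05). AT1G30795 was lower in 35S::IaTCP1 than in 35S::CYC, with a log2 difference of -1.19 (standard error 0.10, limma adjusted p = 2.91e-06), and both arrays of each group lay on their own side. AT5G46730 was lower in 35S::TCP1 than in 35S::CYC, with a log2 difference of -1.15 (standard error 0.08, limma adjusted p = 1.44e-06). Against the empty vector, AT5G46730 differed by -0.79 in 35S::TCP1 and by 0.36 in 35S::CYC.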

How the results depend on the processing

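AT2G05540 and GRP3S kept the sign of their differences from the empty vector in all 11 alternatives. Leaving out each array in turn gave differences of AT2G05540 of 4.08 to 4.23 for 35S::TCP1 against the empty vector, 0.94 to 1.08 for 35S::IaTCP1 against 35S::TCP1, which crosses the 2-fold mark, and 0.85 to 0.99 for 35S::TCP1 against 35S::CYC. The difference of GRP3S between 35S::TCP1 and 35S::CYC ranged from -0.01 to 0.13 and has no settled sign. Without the 2-fold minimum, 4646, 3579 and 4671 probe sets passed for 35S::IaTCP1, 35S::TCP1 and 35S::CYC against the empty vector, and 1444, 3925 and 3973 for 35S::IaTCP1 against 35S::TCP1, 35S::IaTCP1 against 35S::CYC and 35S::TCP1 against 35S::CYC, because fewer conditions are set. Genes named through the study's tables were listed there for their change. Adding them moved the calls of other glycine-rich genes, higher and lower together, to 5 for 35S::TCP1 and 5 for 35S::CYC against the empty vector. For 35S::IaTCP1 against 35S::CYC it moved them to 2, by 1 lower call. The calls added against the empty vector were 1 higher and 2 lower for 35S::TCP1 and 1 higher and 1 lower for 35S::CYC. The higher one was GRP3 each time. The labels do not say what a replicate number marks. Arrays with the same number deviated together, with r between 0.16 and 0.52 in the 6 pairings of groups. A fit with that number as a block called 757, 437 and 700 probe sets for 35S::IaTCP1, 35S::TCP1 and 35S::CYC against the empty vector, beside 756, 435 and 700 without it, and changed no call of a named gene or list. Of 582 values under alternatives of single named genes other than AT2G05540 and GRP3S, 581 stayed on their side of the threshold. The exception was AT1G16260, which reached a difference of 1.00 for 35S::IaTCP1 without replicate 2 of that group. Where 1 array of a group was left out, the other was assumed to vary like the remaining groups. With 2 arrays of 1 line per group, no difference here is separated from one between lines.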
